A study of Mus musculus with 12 samples.

Results

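Exons that liver transcripts almost always keep were followed across 4 groups of mouse liver to see where skipping appeared. Their length is not a multiple of 3, so their loss shifts the reading frame where they are coding. The members are skipped exon events, each a middle exon with its neighbors on both sides, for which reads that include the middle exon and reads that join its neighbors directly were counted. Of 28447 events with the same coordinates in the fasted and the refed table and at least 10 counts in each of 12 libraries, 10811 were members, in 9431 exons and 4482 genes. They were chosen by length (28 to 300 nt and not a multiple of 3) and by a mean inclusion level above 90% in refed WT liver. The inclusion level is the length-normalized inclusion count over the sum of the length-normalized inclusion and skipping counts. Because the refed WT values chose the members, they are given as a description and enter no test. A further 6997 events in 6213 exons met the same rule except that their length is a multiple of 3, and they are set beside the members below as the frame-keeping exons.

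The livers came from male BALB/cByJ mice aged 2 to 8 months, with 3 mice in each group. *Lpin1*-/- mice carry the fatty liver dystrophy (fld) mutation throughout the body, and the controls are WT littermates (*Lpin1*+/+). The 4 groups are fasted WT and fasted *Lpin1*-/- (16 hours overnight without food), and refed WT and refed *Lpin1*-/- (the same fast followed by 5 hours with chow). Every mouse was housed singly for the fast, and refed livers were taken later in the day than fasted ones, so feeding and time of day cannot be told apart. The event tables give each group's 3 libraries in a fixed order but without replicate numbers, so they are called the first, the second, and the third listed library here.

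Splicing of an internal exon depends on its recognition as a unit, in which the U2 complex at the branch point and 3′ splice site and the U1 complex at the 5′ splice site act across the exon. SR proteins bound within the exon favor recognition, and many hnRNPs oppose it. When an exon whose length is not a multiple of 3 is left out, every codon after the junction changes and a stop codon usually follows. A stop well upstream of the last exon junction marks the transcript for nonsense-mediated decay, which lowers the level of the skipped form, and several splicing factor genes use such exons to limit their own expression.

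The 8 exons below are named members that lie wholly within an annotated coding sequence and fell in fasted *Lpin1*-/- liver, and they show what skipping does to the frame. Each was read from a GENCODE M21 transcript on GRCm38. In the exon lines the capitals mark the last 3 bases, next to the 5′ splice site. In the lines of the skipped form, which start on a codon of the normal frame, the capitals mark the first stop codon met when the exon is missing. *Rbm5*, which encodes an RNA binding protein of the early spliceosome, has the exon at chr9:107750008-107750092 (minus strand, exon 16 of 25, 85 nt). The first 12 bases of its skipped form come from the exon before, and the stop lies 36 codons after the junction and 848 nt before the last junction. *Clk1*, a kinase of SR proteins, has the exon at chr1:58420121-58420211 (minus strand, exon 4 of 13, 91 nt), with 12 bases before the junction and the stop 6 codons after it. *Nr1d1*, the clock repressor REV-ERBα, has the exon at chr11:98771437-98771525 (minus strand, exon 3 of 8, 89 nt), with 13 bases before the junction and the stop 46 codons after it.
Rbm5 exon: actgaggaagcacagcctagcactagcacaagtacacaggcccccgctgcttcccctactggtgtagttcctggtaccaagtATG
Rbm5 skipped form: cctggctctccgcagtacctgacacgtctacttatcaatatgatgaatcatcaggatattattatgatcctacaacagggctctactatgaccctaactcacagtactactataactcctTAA
Clk1 exon: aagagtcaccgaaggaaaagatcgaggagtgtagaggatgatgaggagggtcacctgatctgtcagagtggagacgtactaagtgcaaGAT
Clk1 skipped form: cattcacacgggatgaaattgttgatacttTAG
Nr1d1 exon: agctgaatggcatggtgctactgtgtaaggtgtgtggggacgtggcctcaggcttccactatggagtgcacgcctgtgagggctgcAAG
Nr1d1 skipped form: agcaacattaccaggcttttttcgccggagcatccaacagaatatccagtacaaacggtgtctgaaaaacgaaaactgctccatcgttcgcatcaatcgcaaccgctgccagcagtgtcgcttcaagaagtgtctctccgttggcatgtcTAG

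*Hnrnph1* and *Hnrnpul2* encode hnRNP proteins, *Puf60* encodes a partner of U2AF at the 3′ splice site, and *Mtf2* encodes a Polycomb accessory protein. Their exons lie at chr11:50381459-50381597 (plus strand, exon 6 of 15, 139 nt), chr19:8830888-8830961 (plus strand, exon 12 of 14, 74 nt), chr15:76071466-76071656 (minus strand, exon 9 of 12, 191 nt), and chr5:108094125-108094248 (plus strand, exon 9 of 15, 124 nt). In these 4 the skipped form met a stop 52, 3, 90, and 17 codons after the junction, which left 184 of 449, 661 of 745, 367 of 564, and 282 of 593 codons. *Tmem165*, a Golgi membrane protein needed for glycosylation, differs in that its exon (chr5:76207802-76207907, plus strand, exon 5 of 6, 106 nt) is the last but one. Its stop codon is the first codon after the junction, which is then the last junction of the transcript, so 263 of 323 codons remain and no junction follows the stop. The skipped forms start 13 (*Hnrnph1*, *Hnrnpul2*, and *Puf60*), 14 (*Mtf2*), and 12 (*Tmem165*) bases before the junction.
Hnrnph1 exon: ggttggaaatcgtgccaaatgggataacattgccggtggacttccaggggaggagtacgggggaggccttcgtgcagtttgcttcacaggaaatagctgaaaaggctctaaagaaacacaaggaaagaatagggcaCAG
Hnrnph1 skipped form: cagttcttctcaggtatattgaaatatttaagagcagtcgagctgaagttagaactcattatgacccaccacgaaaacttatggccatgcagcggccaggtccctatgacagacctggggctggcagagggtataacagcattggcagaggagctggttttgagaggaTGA
Hnrnpul2 exon: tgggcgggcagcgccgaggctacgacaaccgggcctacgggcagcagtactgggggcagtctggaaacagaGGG
Hnrnpul2 skipped form: ggccaaggctatgggctaccgTAA
Puf60 exon: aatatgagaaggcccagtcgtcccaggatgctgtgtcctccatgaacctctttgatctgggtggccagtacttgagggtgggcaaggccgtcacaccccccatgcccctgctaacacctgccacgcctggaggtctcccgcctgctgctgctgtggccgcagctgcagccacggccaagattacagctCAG
Puf60 skipped form: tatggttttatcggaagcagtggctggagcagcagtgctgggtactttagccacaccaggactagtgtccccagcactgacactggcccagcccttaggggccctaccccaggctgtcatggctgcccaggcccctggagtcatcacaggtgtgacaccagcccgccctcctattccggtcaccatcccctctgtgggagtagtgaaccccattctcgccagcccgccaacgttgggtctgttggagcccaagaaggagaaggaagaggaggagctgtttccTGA
Mtf2 exon: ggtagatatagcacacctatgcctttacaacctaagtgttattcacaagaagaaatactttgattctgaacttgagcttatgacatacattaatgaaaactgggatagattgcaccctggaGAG
Mtf2 skipped form: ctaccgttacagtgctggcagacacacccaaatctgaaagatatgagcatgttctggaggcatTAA
Tmem165 exon: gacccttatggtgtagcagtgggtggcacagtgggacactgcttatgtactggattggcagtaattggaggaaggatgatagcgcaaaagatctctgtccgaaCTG
Tmem165 skipped form: gcagctagagagTGA

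*Lpin1* RPKM (read counts scaled to gene length and library size) in the 3 fasted WT libraries was 21.96, 0.7259, and 1.757, and it was 2.916, 0.784, and 2.765 in refed WT. It was 0.0597, 0.0566, and 0.0368 in fasted *Lpin1*-/- and 0.00573, 0.0238, and 0.00962 in refed *Lpin1*-/-, so each *Lpin1*-/- library lay below each WT library. A member had a median of 340 to 452 counts per library in fasted *Lpin1*-/-, 443 to 577 in fasted WT, 548 to 621 in refed WT, and 566 to 662 in refed *Lpin1*-/-. The 6 hepatocyte markers were all above 1 RPKM, and none of the 6 passed the threshold in either contrast used here. Their summed RPKM ranged from 54430 to 69860 in fasted WT and from 58240 to 72420 in fasted *Lpin1*-/-. The summed RPKM of 5 cholangiocyte markers reached 451.5 in 1 fasted *Lpin1*-/- library, and its range was 32.05 to 45.79 in fasted WT. Stellate cell markers summed to 193.9 to 285 in fasted *Lpin1*-/- and 65.92 to 153.8 in fasted WT, with 0 of 6 past the threshold, and 1 of 5 endothelial markers was higher in fasted *Lpin1*-/-. No marker of the other lists (6 of macrophages, 4 tested of lymphocytes, and 2 tested of neutrophils) passed between the fasted groups, and 1 macrophage marker was lower in refed than in fasted *Lpin1*-/-. The part of these cells in the exon results was not tested, and in whole liver fewer cells of a type and less RNA per cell cannot be told apart.

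Skipping of the members was rare in WT liver. In fasted WT, 3774 of the 10811 members (34.9%) had 0 skipping counts over the 3 libraries, as did 3555 (32.9%) in refed WT, and 2078 had none in all 6 WT libraries. In fasted *Lpin1*-/- the number with 0 was 1353 (12.5%) and in refed *Lpin1*-/- 1362 (12.6%). Each deposited table of genotypes holds only events with at least 1 skipping count among its 6 libraries. A member with none in the WT libraries therefore had to have some in *Lpin1*-/- libraries, and counts over such members are not evidence of a direction. Averaged over all 12 libraries, 1967 members had 5 or more skipping counts per library. At the inclusion cut, the members just inside were in *Fam234a* and *Rnf149*, with a mean of 90.1% in refed WT for both. Just outside lay exons of *Cyp2d26*, which missed the cut before rounding, and *Dcakd* (89.9%).

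The share of members that fell under 90% inclusion was highest in fasted *Lpin1*-/- liver. It was 1.79%, 2.67%, and 2.31% in the fasted WT libraries and 13%, 10.6%, and 7.65% in the fasted *Lpin1*-/- libraries. In refed *Lpin1*-/- it was 4.18%, 3.78%, and 3.62%, and in refed WT, where the members were chosen, 1.6%, 1.28%, and 1.37%. The libraries of fasted and of refed *Lpin1*-/- thus each lay above the 3 fasted WT libraries, and fasted *Lpin1*-/- lay above refed *Lpin1*-/-. The low share in refed WT is fixed by the rule. By group means, 158 members were under 90% in fasted WT (1.46%), 1076 in fasted *Lpin1*-/- (9.95%), and 316 in refed *Lpin1*-/- (2.92%). Counted by where the mean was low, 828 members were under 90% in fasted *Lpin1*-/- alone, 150 in both *Lpin1*-/- groups, 89 in refed *Lpin1*-/- alone, 47 in fasted WT alone, 34 in both fasted groups, 13 in fasted WT and refed *Lpin1*-/-, and 64 in all 3 groups that were not used to choose them. The remaining 9586 members (88.7%) stayed above 90% in each group mean. A mean under 50% was found for 32 members in fasted *Lpin1*-/- liver, for 2 after refeeding of *Lpin1*-/- mice, and for 0 in fasted WT.

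The frame-keeping exons had shares close to those of the members in each group. Their group means were under 90% for 1.89% in fasted WT, 9.78% in fasted *Lpin1*-/-, and 3.62% in refed *Lpin1*-/-. In the 3 fasted *Lpin1*-/- libraries, 12.5%, 10.6%, and 7.96% of the frame-keeping exons were under 90%. No test of the difference between these sets was made.

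**Figure D1:**
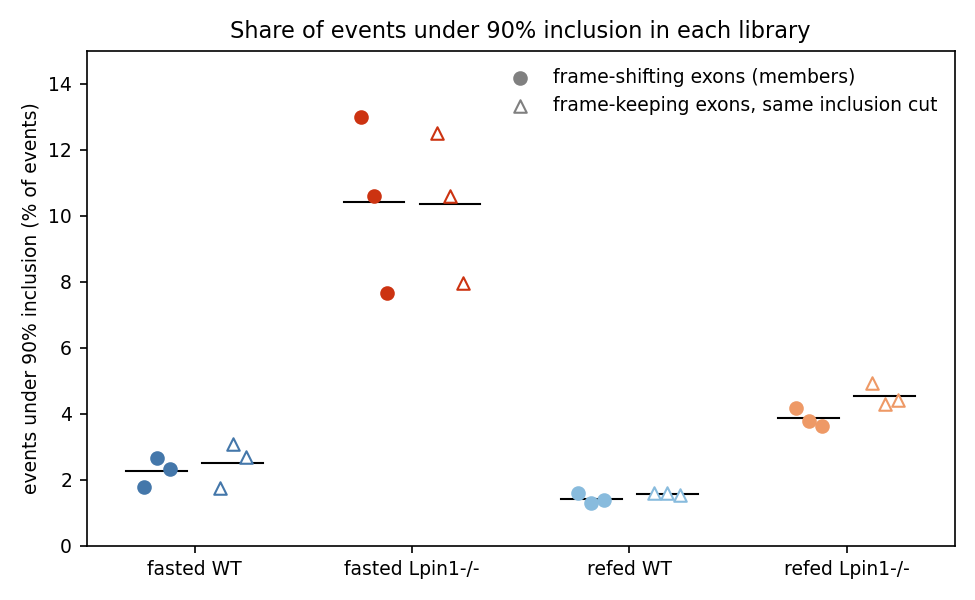
Percent of member events (filled circles) and of frame-keeping events (open triangles) with an inclusion level under 90% in each of the 12 libraries, by group, with the group mean as a line. The fasted *Lpin1*-/- libraries sit at 7.65% to 13% for the members, above the fasted WT and refed *Lpin1*-/- libraries, and the low refed WT values are fixed by the rule that chose the exons.

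Inclusion in fasted *Lpin1*-/- was compared with that in fasted WT with limma, on a log2 scale of inclusion over skipping counts (each divided by the length of its form), in 1 fit of all 28447 events and of the 9 libraries that the rule did not use. A negative difference means less inclusion relative to skipping. Where skipping counts are 0 in both groups, the 0.5 added to each count makes the difference follow the inclusion counts alone. The 206-nt exon of *Brdt* had 0 skipping counts in fasted and refed *Lpin1*-/-, yet its difference between them was −1.09. The part of lower counts in fasted *Lpin1*-/- in the differences was not tested. Over all events 13.9% passed a Benjamini-Hochberg adjusted p of 0.05, 9.77% with lower and 4.09% with higher inclusion in *Lpin1*-/-. Of the 10811 members 1664 passed (15.4%), 1623 with lower inclusion (15%) and 41 with higher inclusion, and 3303 had an unadjusted p under 0.05. Of the 1623, 779 had 0 skipping counts in fasted WT. Those could be listed only through skipping in fasted *Lpin1*-/- and are not evidence of a direction. The median difference was −1.05 among members and −0.50 among all events. Exons chosen for inclusion above 90% have little room to rise, so the direction follows in part from the choice. Among the frame-keeping exons, 928 of 6997 passed (13.3%), 915 with lower inclusion, with a median difference of −0.997. The inclusion levels of the 3 fasted *Lpin1*-/- libraries did not overlap those of the 3 fasted WT libraries for 2492 members (23.1%), against 25.9% of all events.

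The 1623 falls lay in 1562 exons of 1031 genes. Their median size was 5.12 percentage points of inclusion, with quartiles of 1.57 and 13.21. Mean inclusion fell by at least 10 points for 521 and by at least 50 for 21. Among the 7037 members with skipping counts in fasted WT, 844 were lower (12%) and 36 higher, and the median difference was −0.63. Several libraries moved the number of calls. It was 1054 without the first listed fasted *Lpin1*-/- library, 1022 without the first and 947 without the third listed fasted WT library.

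**Figure D2:**
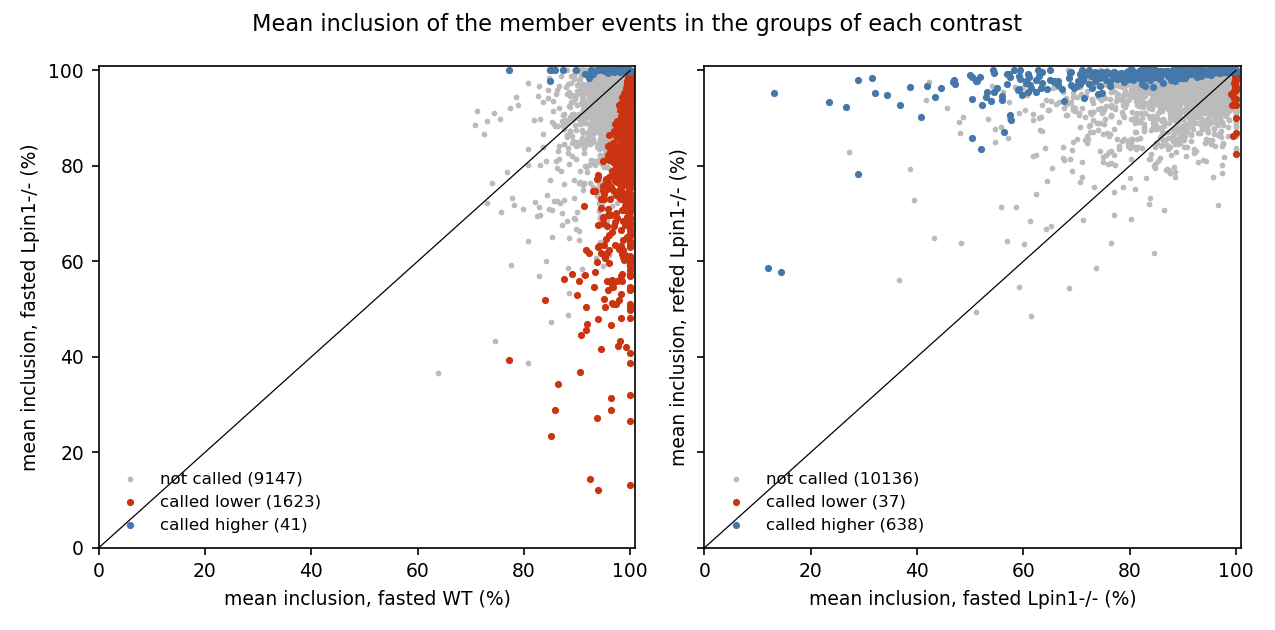
Mean inclusion level (%) of each of the 10811 members in the groups of the contrasts, fasted WT against fasted *Lpin1*-/- (left) and fasted against refed *Lpin1*-/- (right), with the diagonal of equal levels. Red points are called lower and blue points called higher in the group on the vertical axis. On the left 1623 red points hang below the diagonal near 100% on the horizontal axis, and on the right 638 blue points lie above it.

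Among the 12 named exons with the largest falls, 1 belonged to a splicing regulator, *Rbm5*, and other splicing genes were named by their lists or by the study. The 85-nt exon of *Rbm5* had inclusion levels of 86.3%, 81.6%, and 87.2% in fasted WT and 13.8%, 31.5%, and 25% in fasted *Lpin1*-/-. In refed WT it had 100%, 92.6%, and 92%, and in refed *Lpin1*-/- 88.6%, 96.2%, and 95.1%. The fasted *Lpin1*-/- libraries were the low ones and overlapped no other group. The difference between the fasted groups was −4.25 ± 0.68 (log2 ratio ± SE, limma adjusted p = 0.00286), or 61.6 points of inclusion. The 91-nt exon of *Clk1* was included at 95.5%, 76.7%, and 86.9% in fasted WT and at 30.7%, 22.5%, and 49.9% in fasted *Lpin1*-/-. It was at 92.7%, 93.5%, and 94.5% in refed WT and at 94.1%, 97.3%, and 93% in refed *Lpin1*-/-. Again the 3 fasted *Lpin1*-/- libraries were the low ones, with a difference of −3.90 ± 0.81 (adjusted p = 0.0098). Both calls held without any single library.

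The 139-nt exon of *Hnrnph1* was less complete in WT, at 82.2%, 82.1%, and 87.6% in fasted WT, 45.9%, 55%, and 55% in fasted *Lpin1*-/-, and 82%, 86.2%, and 82.4% in refed *Lpin1*-/-. The fasted groups did not overlap, with a difference of −2.27 ± 0.57 (adjusted p = 0.0229), a call that ended when any of 4 libraries was left out (adjusted p of 0.0511 to 0.0854). The 74-nt exon of *Hnrnpul2* was at 98.7%, 96.5%, and 99.1% in fasted WT and 75.1%, 79.9%, and 89.6% in fasted *Lpin1*-/- (−3.54 ± 0.71, adjusted p = 0.00829). The refed *Lpin1*-/- libraries had 96%, 98%, and 96.5%, within or near the range of fasted WT. For the 191-nt exon of *Puf60* the fasted WT libraries had 0, 0, and 6 skipping counts beside 1788, 1578, and 1590 inclusion counts, and the fasted *Lpin1*-/- libraries had 122, 63, and 61. Inclusion was 73.5%, 85.8%, and 89.4% in fasted *Lpin1*-/- and 98.6% to 100% in fasted WT, without overlap (−6.16 ± 1.21, adjusted p = 0.0071, but 0.0763 when each value was weighted by the precision of its counts).

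*Srsf1*, the founding SR protein, has a 187-nt member exon (chr11:88049412-88049598, plus strand, exon 4 of 5) at 99.6%, 97.2%, and 99.4% in fasted WT and 72.7%, 93.7%, and 90.3% in fasted *Lpin1*-/- (−3.56 ± 0.82, adjusted p = 0.0152). The groups did not overlap, and the call ended without any of 3 libraries (adjusted p of 0.0558 to 0.0633). *U2af1l4*, a relative of the small U2AF subunit, has a 134-nt exon (chr7:30564474-30564607, plus strand, exon 6 of 7) at 94.6%, 96.6%, and 99.1% in fasted WT and 45.8%, 64.8%, and 53.5% in fasted *Lpin1*-/- (−4.70 ± 0.87, adjusted p = 0.00562). Refed *Lpin1*-/- libraries were spread between these, at 78.3%, 96.9%, and 87.8%. Exons of *U2af2* (136 nt), the large U2AF subunit, and *Esrp2* (133 nt), an epithelial splicing regulator, stayed at 97.1% or more in each of the 6 fasted libraries and did not pass the threshold (adjusted p of 0.133 and 0.35). *Esrp2* also had another member exon, not followed here, that was called lower in fasted *Lpin1*-/-.

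The exon of *Nr1d1* went from complete to partial inclusion. Fasted WT libraries had 0 skipping counts beside 610, 264, and 554 inclusion counts, which allows a skipped share of up to 1.12%, 2.56%, and 1.24%, taking 3 counts as the limit that a count of 0 allows. Fasted *Lpin1*-/- libraries had 54, 156, and 81 skipping counts and inclusion levels of 56.5%, 42.5%, and 64.4%. Refed WT had 0 skipping counts and refed *Lpin1*-/- had 0, 1, and 0. Skipping of this exon was thus seen in each fasted *Lpin1*-/- library and, apart from a single count, in no other. The fall from fasted WT passed at an adjusted p of 0.000483. With 0 skipping counts in fasted WT, the event could be listed only through skipping in fasted *Lpin1*-/-, so its direction was fixed. The same holds for the exons of *Trmt13*, *Mtf2*, *Eif4a1*, and *Akr7a5* below, and their p-values are not evidence of a direction. The related *Nr1d2* (chr14:18219968-18220056, minus strand, exon 3 of 8) has an exon of the same length, 89 nt, at the same place in its transcript. It moved far less, from 99.6%, 99.2%, and 100% in fasted WT to 96.2%, 92.6%, and 97.2% in fasted *Lpin1*-/- (−3.06 ± 0.77, adjusted p = 0.0223, 0.0558 to 0.0927 without any of 4 libraries, and 0.0781 with precision weights).

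The largest falls of all came from genes of RNA modification, chromatin, mitochondria, and purine salvage. *Trmt13*, a tRNA methyltransferase, has a 175-nt exon (chr3:116588472-116588646, minus strand) with 0 skipping counts in fasted WT beside 55, 69, and 48 inclusion counts. Those counts allow a skipped share of up to 16.31%, 13.45%, and 18.26%. In fasted *Lpin1*-/- its inclusion was 1.7%, 14.1%, and 23.5%, from 16, 17, and 10 skipping counts, and in refed *Lpin1*-/- 100%, 92.9%, and 92.7% (adjusted p = 0.000714 between the fasted groups). A 53-nt form of the same exon, with the same skipping reads, fell as well. *Aprt*, the salvage enzyme of adenine, has a 113-nt exon (chr8:122576119-122576231, minus strand) at 92.5%, 93.3%, and 95.9% in fasted WT and 4.7%, 12.9%, and 18.6% in fasted *Lpin1*-/- (−6.70 ± 0.70, adjusted p = 0.00049). In refed *Lpin1*-/- it was at 52.6%, 67.1%, and 56.4%, between the fasted *Lpin1*-/- and the fasted WT libraries without overlap with either. Refed WT, which chose the exon, had 97.2%, 100%, and 100%. A 134-nt form of the *Aprt* exon shares its skipping reads and is not a separate observation.

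The 124-nt exon of *Mtf2* had no skipping count in either WT group and 11, 6, and 12 in fasted *Lpin1*-/-, for inclusion of 11.4%, 63.1%, and 41.5% there (adjusted p = 0.00231). Its counts are low, and 0 skipping counts in fasted WT allow a skipped share of up to 9.68%, 17.5%, and 14.7%. *Atad3a*, a mitochondrial membrane ATPase, has a 155-nt exon (chr4:155748675-155748829, minus strand) at 89.2%, 100%, and 100% in fasted WT and 10.4%, 32.4%, and 43.9% in fasted *Lpin1*-/- (−4.84 ± 0.87, adjusted p = 0.00479, and 0.0609 with precision weights). Both *Mtf2* and *Atad3a* are listed with a second form of the exon that differs at 1 end and shares its skipping reads. *Tmem165* was at 97.8%, 100%, and 100% in fasted WT, 46.3%, 48.6%, and 31% in fasted *Lpin1*-/-, and 94.3%, 99.2%, and 96.5% in refed *Lpin1*-/- (−7.30 ± 0.87, adjusted p = 0.000688). *Eif4a1*, the mRNA helicase of translation initiation, has a 65-nt exon (chr11:69670928-69670992, minus strand) that went from 0 skipping counts in fasted WT to 19, 13, and 14 in fasted *Lpin1*-/-. Its inclusion there was 33.8%, 51.5%, and 36.9% (adjusted p = 0.00434), and the fasted WT counts allow a skipped share of up to 19.6%, 25.7%, and 28.1%. The 65-nt exon of *Cyp4a32*, a fatty acid hydroxylase, went from 91.1%, 89.9%, and 100% to 26.8%, 29%, and 25.7% (adjusted p = 0.00479), but its reads may be shared with near-identical *Cyp4a* genes, so the value is uncertain.

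Exons of phospholipid synthesis enzymes and of an aldehyde reductase also fell. *Chkb*, a choline kinase of phosphatidylcholine synthesis, has a 112-nt exon (chr15:89428411-89428522, minus strand) at 99.6%, 97.8%, and 96.9% in fasted WT and 69.6%, 70.9%, and 83.2% in fasted *Lpin1*-/- (−4.26 ± 0.74, adjusted p = 0.00416). *Pcyt2*, the rate-setting enzyme of phosphatidylethanolamine synthesis from CDP-ethanolamine, has a 160-nt exon (chr11:120615291-120615450, minus strand) at 99.6% to 99.9% in fasted WT and 84.9%, 90.8%, and 96.7% in fasted *Lpin1*-/- (−5.00 ± 0.76, adjusted p = 0.00224). In both genes the fasted groups did not overlap. *Akr7a5*, the aldehyde reductase, had 0 skipping counts in the 6 WT libraries beside 5764 to 9092 inclusion counts, and 56, 47, and 23 in fasted *Lpin1*-/- for 93.4%, 94.5%, and 98% inclusion (188-nt exon, chr4:139314104-139314291, plus strand, exon 2 of 7, adjusted p = 0.000483, and 0.0516 with precision weights).

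The other 3 named members fell by less than 10 points with calls that held without any single library. They are the 178-nt exon of *Psmb3*, a proteasome subunit (from 99.9% or more to 96.4%, 98.4%, and 99.6%, adjusted p = 0.00535, and 0.0585 with precision weights), the 199-nt exon of *Araf*, a RAF kinase (from 99.2% or more to 94.2%, 95%, and 93.7%, adjusted p = 0.00774), and the 206-nt exon of *Epb41*, a cytoskeletal linker (from 99.2% or more to 97%, 93.6%, and 92.4%, adjusted p = 0.0147). The 35-nt exon of *Gnmt*, the hepatic glycine methyltransferase, went from 96.8%, 94.6%, and 96.5% to 84.7%, 87.6%, and 87.3% on 1408 to 2523 skipping counts (−1.91 ± 0.56, adjusted p = 0.0451). That call ended without any 1 of the 9 libraries (adjusted p of 0.0579 to 0.125), although the fasted groups did not overlap.

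**Figure D3:**
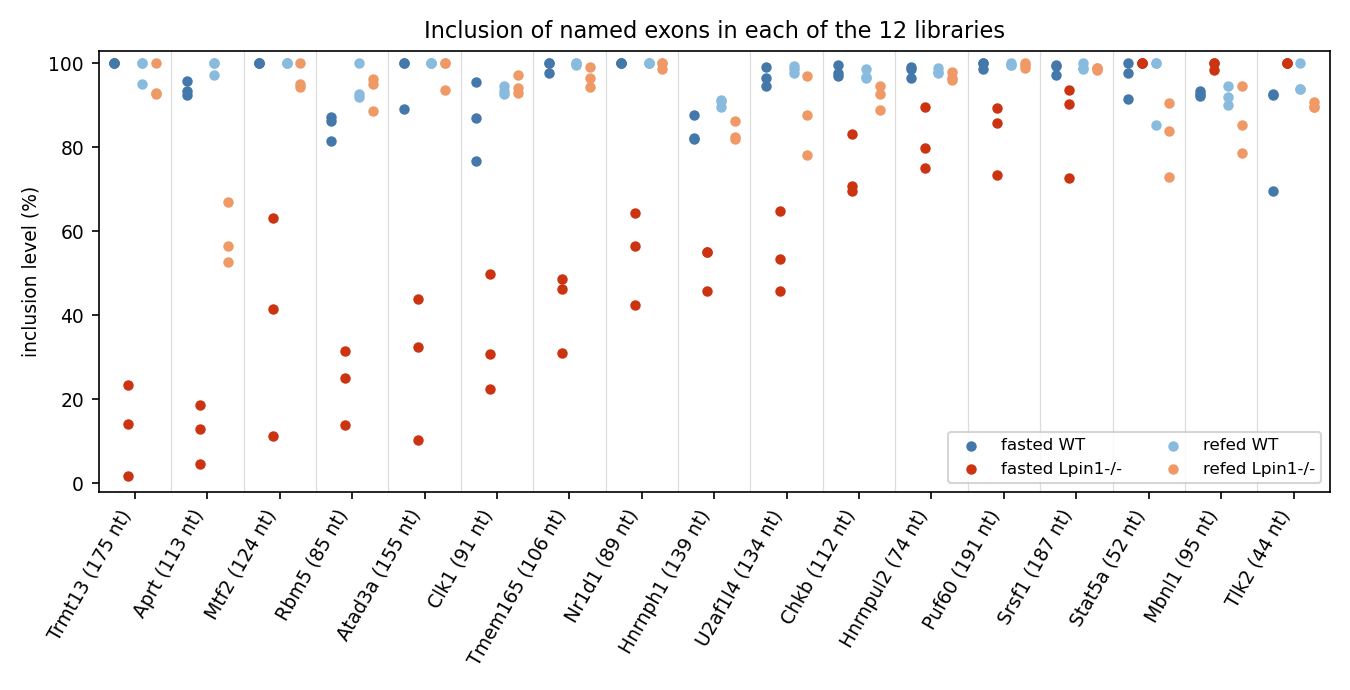
Inclusion level (%) of 17 named exons in each of the 12 libraries, colored by group, with the exon length in nt beside the gene. For the 14 exons from *Trmt13* to *Srsf1* the 3 red points of fasted *Lpin1*-/- lie below every fasted WT point, and for *Aprt* the refed *Lpin1*-/- points lie at 52.6% to 67.1%.

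Few members rose in fasted *Lpin1*-/-. The 41 events called higher lay in 40 exons of 35 genes. The 4 with the largest rises (*Esco1*, *Tlk2*, *Brdt*, and *Zfp715*) had 0 skipping counts in the 3 fasted *Lpin1*-/- libraries. They could be listed only through skipping in fasted WT, so their direction was fixed as well. *Tlk2*, a chromatin kinase, has a 44-nt exon (chr11:105209794-105209837, plus strand, exon 6 of 22) at 92.4%, 92.7%, and 69.6% in fasted WT, from 3, 1, and 9 skipping counts. In fasted *Lpin1*-/- the 0 skipping counts allow a skipped share of up to 8.24%, 5.56%, and 5.26% (adjusted p = 0.00441, and 0.0547 with precision weights). The exon of *Esco1*, a cohesin acetyltransferase, lies in the 5′ UTR, and in fasted WT it was at 78.6%, 82%, and 71% (adjusted p = 0.00442), with a skipped share of up to 16.5%, 20.8%, and 13.6% allowed in fasted *Lpin1*-/-. The calls for *Brdt* and *Zfp715*, on 1 to 6 skipping counts per library in fasted WT, ended without any of 4 and any of 3 libraries (adjusted p of 0.0561 to 0.0905 and 0.0505 to 0.0632). *Mbnl1*, a regulator of alternative exons, has a 95-nt exon (chr3:60622146-60622240, plus strand, exon 8 of 10) at 93.5%, 92.2%, and 92.8% in fasted WT and 100%, 100%, and 98.4% in fasted *Lpin1*-/- (2.72 ± 0.72, adjusted p = 0.0284, and 0.0673 to 0.0913 without any of 5 libraries).

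Refeeding of *Lpin1*-/- mice was compared with fasting of *Lpin1*-/- mice in the same fit. This contrast and the one before share the fasted *Lpin1*-/- libraries, so high values in one and low values in the other are not independent. Over all events 5.46% passed, 1.67% with lower and 3.78% with higher inclusion in refed *Lpin1*-/-. Of the members 675 passed (6.24%), 638 with higher and 37 with lower inclusion, and 2474 had an unadjusted p under 0.05. The median difference was 0.73 among members and 0.34 among all events, and 293 of the frame-keeping exons passed (4.19%, 281 higher). The 638 rises lay in 627 exons of 469 genes, with a median of 8.09 points and quartiles of 2.98 and 17.64, and 270 were at least 10 points. Of the 638, 323 had 0 skipping counts in fasted WT. Those were listed in the fasted table only through skipping in fasted *Lpin1*-/- and are not evidence of a direction. Among the 7037 members with skipping counts in fasted WT, 315 were higher (4.48%) and 32 lower, and the median difference was 0.46. Libraries did not overlap for 1784 members (16.5%) and 19.7% of all events. The number of calls was 268 without the first and 277 without the second listed fasted *Lpin1*-/- library, and 253 without the second and 331 without the third listed refed *Lpin1*-/- library.

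The exons with the largest rises were those of *Trmt13*, *Rbm5*, *Atad3a*, *Mtf2*, and *Clk1*. In refed *Lpin1*-/- the 155-nt exon of *Atad3a* was at 100%, 93.7%, and 100%, and the 124-nt exon of *Mtf2* at 95.1%, 100%, and 94.4%. Refed *Lpin1*-/- was higher than fasted *Lpin1*-/- by 82.1 points for *Trmt13* (175 nt, adjusted p = 0.00479), 69.9 points for *Rbm5* (5.63 ± 0.68, adjusted p = 0.00406), 69 points for *Atad3a* (155 nt, adjusted p = 0.00584), and 60.5 points for *Clk1* (5.23 ± 0.81, adjusted p = 0.0073). These calls held without any single library, as did those for *Tmem165* (5.45 ± 0.87, adjusted p = 0.00766) and *Nr1d1* (45.1 points, adjusted p = 0.00364, and 0.0546 with precision weights). With no skipping counts in fasted WT, the exons of *Trmt13*, *Mtf2*, and *Nr1d1* were listed in the fasted table only through skipping in fasted *Lpin1*-/-. Their rises are therefore not evidence of a direction either. The rises of *Aprt* (113 nt, 3.56 ± 0.70, adjusted p = 0.0171), *Puf60* (5.73 ± 1.21, adjusted p = 0.0226), *Srsf1* (3.46 ± 0.82, adjusted p = 0.0342), and *Hnrnph1* (2.23 ± 0.57, adjusted p = 0.046) passed. They ended without any of 2, 4, 6, and 9 libraries, with adjusted p values of 0.052 to 0.0654, 0.0555 to 0.0853, 0.0527 to 0.108, and 0.0565 to 0.143. *Hnrnpul2* had an adjusted p of 0.0504, and *Pcyt2*, *Chkb*, and *Gnmt* did not pass, with mean differences of 5.5, 17.5, and 0.4 points.

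Of the 37 members lower in refed than in fasted *Lpin1*-/-, the 4 with the largest falls were in *Stat5a*, *Mbnl1*, *Yipf2*, and *Tlk2*. *Stat5a*, a transcription factor of growth hormone signaling, has a 52-nt exon (chr11:100881738-100881789, plus strand, exon 18 of 20). In fasted *Lpin1*-/- it had 0 skipping counts beside 48, 45, and 46 inclusion counts. In refed *Lpin1*-/- it had 9, 18, and 4 skipping counts and inclusion of 83.9%, 73%, and 90.5% (adjusted p = 0.0392). The fasted libraries allow a skipped share of up to 9.93%, 10.5%, and 10.3%. *Mbnl1* went from 100%, 100%, and 98.4% to 94.6%, 78.7%, and 85.3% (−3.46 ± 0.72, adjusted p = 0.022). *Yipf2*, a Golgi protein, has a 61-nt exon that holds the start codon and was at 84.4%, 85.4%, and 90.7% in refed *Lpin1*-/- (adjusted p = 0.0279). *Tlk2* was at 90.7%, 89.7%, and 89.7% in refed *Lpin1*-/- (adjusted p = 0.0205). Each of these 4 falls lost its call without any of 3 to 7 libraries, with adjusted p values between 0.0569 and 0.135.

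Members were then counted by gene list, with 1 event per exon, for lists written by hand from general knowledge of each process. The counts include exons with no skipping counts in fasted WT, which are not evidence of a direction and were not counted apart. Over all 9431 member exons, 1472 (15.6%) were lower in fasted *Lpin1*-/- than in fasted WT, with a median difference of −1.09 or −0.49 points. In the list of SR proteins and hnRNPs 11 of 42 exons were lower and 1 was higher (median −1.46, −1.21 points). The 11 lay in *Hnrnpdl*, *Hnrnpf*, *Hnrnph1*, *Hnrnph3*, *Hnrnpk*, *Hnrnpul2*, *Srsf1*, *Srsf7*, and *Taf15*. In spliceosome and exon definition factors 15 of 92 were lower and 2 higher (median −0.93, −0.78 points). Circadian clock genes had 11 member exons, of which 3 were lower (*Nr1d1*, *Nr1d2*, and *Fbxw11*) and 1 was higher. In phospholipid synthesis 7 of 45 exons were lower, in *Chkb*, *Pcyt2*, *Pgs1*, *Pisd*, and *Selenoi*, and in MAP kinase signaling 5 of 42 (*Araf*, *Map2k3*, and *Shc1*). None of the 15 exons of nonsense-mediated decay and exon junction complex genes was lower, and 1 was higher.

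Genes of fatty acid oxidation and the PPARα pathway had the largest share of lower exons, 49 of 166 in 25 genes such as *Acadvl*, the very long-chain acyl-CoA dehydrogenase of mitochondria. Their median difference was −1.97 on the log2 scale, larger than the −1.09 over all member exons. In points of inclusion it was −0.195, smaller than the −0.49 over all member exons. The RPKM of this list was also lower in fasted *Lpin1*-/-, with 29 of 54 genes lower and 3 higher (median log2 fold change −1.09). Where skipping counts are few, fewer inclusion counts alone lower the log2 ratio, and their part in this share was not tested. In amino acid, urea, and one-carbon metabolism 57 of 288 exons were lower and 0 higher (median −1.52, −0.146 points), in oxidative phosphorylation 16 of 119 (−0.0909 points), and in ribosomal proteins 17 of 156 (−0.143 points). The share was 8 of 50 in cholesterol and fatty acid synthesis and 10 of 85 in proteasome and ubiquitin ligase core genes. In refed against fasted *Lpin1*-/-, where 6.34% of all member exons were higher, the counts were 5 of 42 for SR proteins and hnRNPs, 11 of 92 for spliceosome and exon definition factors, 2 of 11 for clock genes, 4 of 45 for phospholipid synthesis, 8 of 166 for fatty acid oxidation, and 2 of 119 for oxidative phosphorylation.

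**Figure D4:**
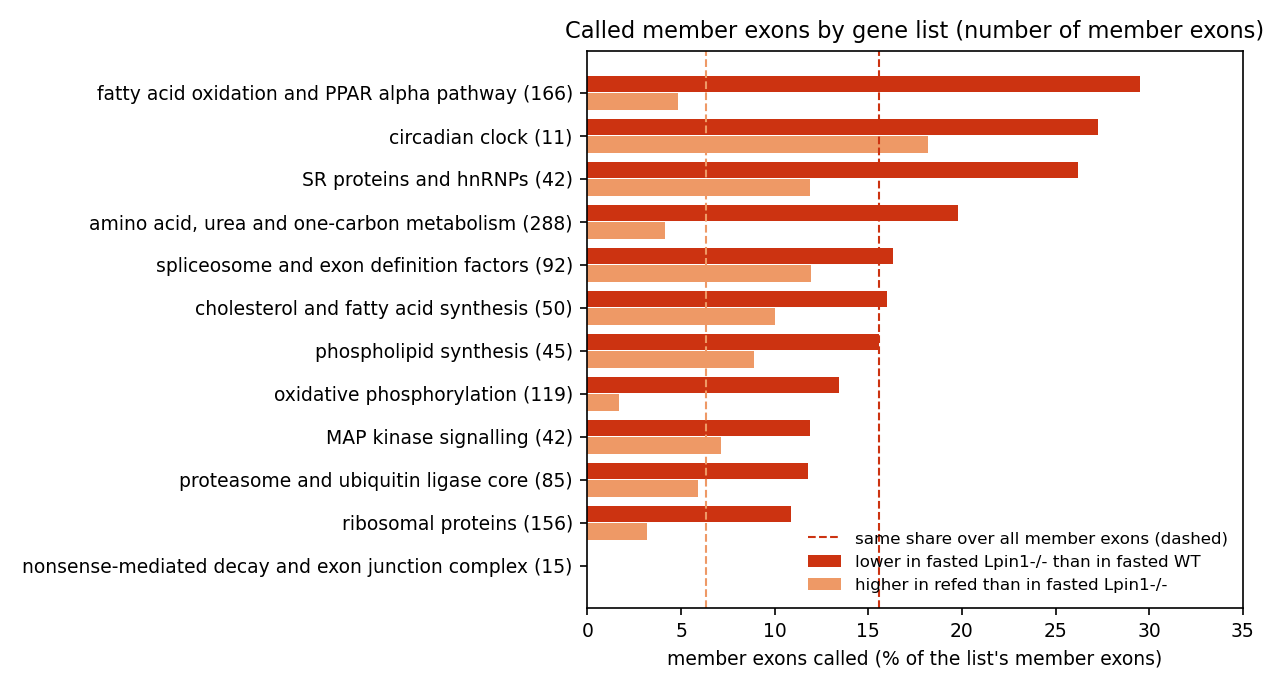
Percent of each list's member exons called lower in fasted *Lpin1*-/- than in fasted WT (red) and higher in refed than in fasted *Lpin1*-/- (orange), with the number of member exons in brackets. Dashed lines give the same shares over all member exons, 15.6% and 6.34%. Exons with no skipping counts in fasted WT are included in bars and lines. Fatty acid oxidation, clock, SR protein and hnRNP, and amino acid, urea, and one-carbon genes lie above the red line. Spliceosome and exon definition factors and cholesterol and fatty acid synthesis genes lie just above it. Nonsense-mediated decay genes have no called bar.

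Several named members did not pass the threshold. The 97-nt exon of *Skp1a*, a subunit of SCF ubiquitin ligases, was at 98.6% to 99.5% in each of the 12 libraries (0.08 ± 0.63 between the fasted groups, adjusted p = 0.952). The 50-nt exon of *Ndufa7*, a complex I subunit, was at 90.6% to 94% on 204 to 581 skipping counts per library (0.19 ± 0.55, adjusted p = 0.854). The 161-nt exon of *Atp5l* and the 83-nt exon of *Magoh*, of the exon junction complex, had adjusted p values of 0.637 and 0.974. *Sf1*, the branch point binding protein, has a 76-nt exon at 85.2%, 82.8%, and 88.5% in fasted WT and 89.7%, 92.9%, and 91.9% in fasted *Lpin1*-/-, without overlap but not past the threshold (0.87 ± 0.58, adjusted p = 0.354). The same holds for *Mrpl15*, a mitochondrial ribosomal protein (90.3%, 80.4%, and 86.1% against 69.9%, 71.5%, and 76.4%, adjusted p = 0.211) and for *Rpl27a* (94.1%, 97.8%, and 97.1% against 85.2%, 89%, and 93.5%, adjusted p = 0.117). With an SE near 0.6, differences of this size were not detectable with 3 libraries a group. The members of *Gpbp1*, *Csnk1d*, *Nf2*, *Zdhhc16*, *Lsm14b*, *Phldb2*, *Ehhadh*, *Tm7sf2*, *Ebp*, *Haao*, *Smg5*, and *Dusp3* also had adjusted p values above 0.05 in both contrasts.

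Most members that could be placed would gain an early stop codon when skipped. Of the 9431 exons, 4987 (52.9%) lie wholly in a coding sequence with both neighbors in an annotated transcript, and 3378 (35.8%) have no annotated transcript with these 3 exons in a row. A further 289 hold the start codon, 117 lie in a 5′ UTR, and 70 hold the stop codon. Among 4981 coding exons whose normal frame could be read through, removal gave a stop more than 50 nt before the last junction for 3768 (75.6%), a later stop for 1201, and none for 12, with a median of 12 codons between the junction and the stop. For the frame-keeping exons the same share was 0.853% (32 of 3750). Among members lower in fasted *Lpin1*-/-, 659 of 867 had the early stop (76%), a share close to that of all members, and the median position of the exon was after 48.05% of the coding sequence, against 42.2% for all members. Among exons higher in refed than in fasted *Lpin1*-/-, 343 of 400 had it (85.8%). The exon itself, with both its ends, is in the annotation for 6829 member exons (72.4%). It is not for the exons of *Chkb*, *Pcyt2*, *Gnmt*, *Araf*, *Epb41*, and *Eif4a1* named above, the 155-nt exon of *Atad3a*, and the 175-nt exon of *Trmt13*. The junction that skips the exon is in the annotation for 1812 member exons (19.2%) and for 283 of the 1472 that were lower (19.2%), against 47.6% of all tested exons.

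Exons that were lower in fasted *Lpin1*-/- lay between shorter introns. Their median upstream intron was 851 nt and their median downstream intron 798.5 nt, against 1602 and 1476 nt over all member exons and 1567 and 1522 nt over all tested exons. Exon length differed little, with medians of 122 and 118 nt. Among the 2358 member exons with the shortest upstream introns (50 to 500 nt), 23.9% were lower, then 17.4%, 13.6%, and 7.59% among the 2358 with the longest (3996 nt or more). The share with a mean inclusion under 90% in fasted *Lpin1*-/- went from 13.9% to 7.68% over the same 4 groups, and in fasted WT from 1.06% to 2.29%. Median counts per library went from 684.5 to 441.8, so depth moved with intron length. Within each of 4 groups by counts, the exons with the shortest upstream introns were lower more often than those with the longest, 17.2% against 5.04% at the lowest counts and 26% against 10.4% at the highest. Frame-keeping exons lower in fasted *Lpin1*-/- had short introns as well, with medians of 789 and 725 nt, against 1516 and 1391 nt for all frame-keeping exons. These exons share genes and libraries, so the shares are descriptions without a test.

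**Figure D5:**
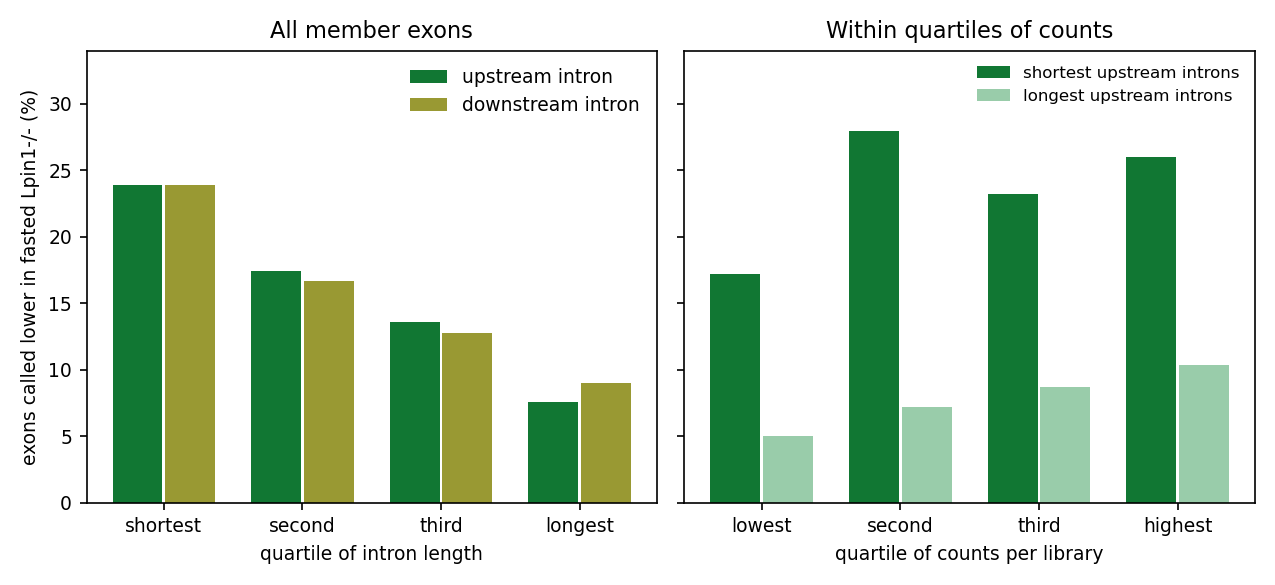
Percent of member exons called lower in fasted *Lpin1*-/- by quartile of upstream and downstream intron length (left), and for the shortest and longest upstream introns within quartiles of counts per library (right). The share falls from 23.9% to 7.59% over upstream introns, and the dark bars exceed the light ones at each count level.

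Calls moved with depth. Of member exons with the lowest counts (12.8 to 199.8 per library), 10.9% were called lower, and with the highest 18.9%. The share under 90% inclusion in fasted *Lpin1*-/- ran the other way, 23.1% at the lowest counts and 1.44% at the highest. At 4.5% and 0.0848%, the fasted WT shares under 90% also fell with counts. The genes with the most lower exons were *Rbp4*, the plasma retinol carrier, with 13 of 16 listed exons lower, and *Ctsl*, a lysosomal protease, with 10 of 12. Exons that differ at 1 end are listed apart, so these numbers exceed the exons of the genes. At least 2 exons were lower in 324 genes and at least 3 in 107 of the 1031 genes.

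Levels of the host genes were compared as log2(RPKM + 1) with limma in 11507 genes averaging 0.5 RPKM or more. Between fasted *Lpin1*-/- and fasted WT, 18.8% of all genes passed. Of 4366 member genes 876 passed (20.1%), 664 lower (15.2%) and 212 higher, with a median log2 fold change of −0.21 against −0.14 for all genes. Among 1013 genes with an exon lower in fasted *Lpin1*-/-, 198 were lower (19.5%) and 47 higher, with a median of −0.29. Among the 596 with a lower exon and an early stop in the skipped form, 128 were lower (21.5%) and 23 higher, with a median of −0.35. Where skipping counts are few, fewer inclusion counts alone lower the log2 ratio of an exon. Choosing genes by a lower exon can therefore favor genes with lower RPKM, and the part of this in these shares was not tested. In refed against fasted *Lpin1*-/-, 20.7% of all genes passed, and of member genes 77 were lower and 836 higher (median 0.32, against 0.25 for all genes). Rescaling each library by its median ratio changed the share lower among called member genes from 75.8% to 64.4% between the fasted groups and from 8.43% to 22.4% in refed against fasted *Lpin1*-/-. The 876 calls between the fasted groups became 419 without replicate 3 of fasted WT. The 913 between refed and fasted *Lpin1*-/- became 498 or 593 when replicate 1 or 2 of the fasted mice was left out, and 399 or 530 when replicate 2 or 3 of the refed mice was.

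Host genes of the leading exons did not move together. *Rbm5* RPKM was 9.62, 5.64, and 6.93 in fasted WT and 4.98, 5.01, and 3.98 in fasted *Lpin1*-/- (log2 fold change −0.55 ± 0.22, adjusted p = 0.107), and refed *Lpin1*-/- was higher at 11.34, 9.26, and 8.65 (0.92 ± 0.22, adjusted p = 0.0139). *Srsf1* was lower in fasted *Lpin1*-/- (24.92, 11.71, and 15.64 against 5.45, 9.75, and 8.39, adjusted p = 0.0273) and higher again in refed *Lpin1*-/- (45.43, 35.61, and 31.2, adjusted p = 0.000914). *Clk1* and *Aprt* had no change in RPKM past the threshold in either contrast (adjusted p of 0.202 to 0.809). *Nr1d1* had 31.9, 22.2, and 34.54 in fasted WT and 27.96, 33, and 28.67 in fasted *Lpin1*-/- (adjusted p = 0.943), with lower levels of 17.44, 9.05, and 12.43 in refed *Lpin1*-/-, taken later in the day (adjusted p = 0.0102). Of 25 nonsense-mediated decay and exon junction complex genes, 2 were lower and 1 higher in fasted *Lpin1*-/- (median −0.11), and 7 were higher in refed *Lpin1*-/-. Among these, *Upf1*, the helicase of the pathway, was at 14.22, 5.24, and 6.72 in fasted WT and 3.36, 5.06, and 5.04 in fasted *Lpin1*-/- (adjusted p = 0.129), and refed *Lpin1*-/- was higher at 16.09, 11.52, and 9.93 (adjusted p = 0.0155). The RPKM of a gene counts included and skipped forms alike, and the part of transcript decay in these levels was not tested.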

How the data were processed

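Liver RNA of 12 mice (3 per group) was sequenced with stranded paired-end reads of 69 bases. The authors aligned reads with HISAT2 2.0.5 to GRCm38 (Ensembl release 84), counted genes with HTSeq 0.6.0, and deposited RPKM values per gene. For skipped exons the authors deposited rMATS tables in which each cell lists the inclusion or skipping counts of 3 libraries. Their own fold changes, p-values, and filtered tables were not used, and 0 other columns of per-sample values were present.

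Events were joined on coordinates, with at least 10 counts in all 12 libraries. With 0.5 added to each count, log2 ratios were fitted with limma 3.58.1 (R 4.3.3) over 9 libraries, and p-values were Benjamini-Hochberg adjusted over all 28447 events at a threshold of 0.05. RPKM was fitted as log2(RPKM + 1) with limma over 12 libraries. The scripts were tested on simulated data. Because no count column holds 1 library per cell, the planned edgeR fit was not run. The p-values set each difference against the spread between mice within groups, with 3 mice per group. limma pools that spread over the groups of the fit and draws it toward a common value across events or genes. Limits from counts of 0 cover counting error only. Frames, introns, and sequences came from GENCODE M21 transcripts. Splice site bases within introns were not analysed here.

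Named exons, with 1 event per exon, were the 12 largest falls and 4 largest rises past the threshold without overlap between fasted groups, the 8 largest rises and 4 largest falls between refed and fasted *Lpin1*-/-, members in genes the study names for splicing, the 2 exons per list with the most counts of the rarer form, and the 2 events on each side of the inclusion cut. Some items that the rule names are not reported here. The members and lists were chosen with earlier results of these data known. Alternatives changed the count minimum, added count, weights, libraries, inclusion cut, and filters.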

Additional observations from a re-analysis of the deposited data

How the results depend on the processing

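The number of members was 8862 to 11499 under other count minimums and 10268 at an inclusion cut of 95%. Between the fasted groups, 1664 members passed. The count was 528 with a difference of at least 10 points also required, 679 among members with at least 3 skipping counts in refed WT, 1017 where the rarer form averaged 5 counts or more, and 913 with precision weights. For refed against fasted *Lpin1*-/-, 675 passed, and the same 4 settings gave 273, 216, 396, and 885, so precision weights lowered the first count and raised the second, while 1 added to each count gave 1061 and a fit of only the 6 libraries of the contrast gave 287. The minimums on skipping and on the rarer form keep fewer events. The cause was not tested for the others. A quasi-binomial test gave 1759 and 989. This test and the minimum of 3 skipping counts were chosen after seeing the data, and the edgeR alternative was not run.

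Leaving out 1 library at a time gave 947 to 1993 members between the fasted groups and 253 to 949 between refed and fasted *Lpin1*-/-. For host genes the ranges were 419 to 937 (876 with all libraries) and 399 to 1229 (913 with all libraries). With a replicate block, 743 and 766 host genes passed. Deviations of same-numbered samples correlated above 0.1 in 8 of 18 pairs (r of −0.474 to 0.743). In the pairs of groups compared here all 6 were negative, while all 3 numbers were above 0.1 for fasted WT with refed *Lpin1*-/- (0.39 to 0.743) and for refed WT with refed *Lpin1*-/- (0.162 to 0.297). No source says what a number shares. For exons, no paired analysis was possible because the lists of libraries carry no replicate numbers.

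Of 34 calls on named exons between the fasted groups, 26 held without any single library and 20 under all alternatives run. Of 21 between refed and fasted *Lpin1*-/-, 10 and 9 did. No alternative turned the direction of a call.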
